A study of Mus musculus with 8 samples.

Results

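The organic cation, carnitine and urate transporters described here are 9 genes, chosen by symbol and matched to their rows in the deposited count table, out of 42256 genes in that table. They are Slc22a2, Slc47a1, Slc22a5, Slc22a4, Slc22a12, Slc22a13, Slc2a9, Slc17a3 and Abcg2, and all 9 passed the filter on low counts that left 15852 genes for testing. RNA came from whole flash-frozen kidneys of adult male mice with a mixed 129S1/Sv x C57BL/6 background. The libraries fall into 4 labelled CDH11-/- and 4 labelled CDH11+/+, and the comparison asks how the labelled loss of cadherin 11, a cell adhesion molecule of mesenchymal cells, bears on the injured kidney. All 8 mice, of both genotypes, had been given aristolochic acid, a plant toxin of the proximal tubule, at 3 mg/kg on each of 5 days and were killed 2 weeks after the last injection, so no uninjured kidney enters the comparison. The title of the series names Unx/AngII in place of aristolochic acid, and samples are described by their labels. The labels do not say how the CDH11-/- allele was made.

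These proteins sit in the membranes of kidney tubule cells and move small molecules between blood, cell and urine. Organic cations such as creatinine, metformin and cisplatin enter proximal tubule cells from the blood side through SLC22A2 and leave into the urine through SLC47A1. SLC22A5 recovers filtered carnitine, which mitochondria need to burn fatty acids. Urate is recovered from the filtrate by SLC22A12 and SLC22A13, passes to the blood through SLC2A9, and is secreted by SLC17A3 and ABCG2.

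The kidney origin of the libraries was plain from proximal tubule markers, 20 of 20 of which were detected and tested, with summed levels of 3851 to 8272 CPM (counts scaled to library size) in CDH11-/- libraries and 4589 to 11645 CPM in CDH11+/+ libraries. Libraries held 10675309 to 18539479 counts. Cdh11 itself did not go with the labels: it stood at 89.9 to 117 CPM in the libraries labelled CDH11-/- and at 58.0 to 75.6 CPM in those labelled CDH11+/+, and its fitted difference on the log2 scale was 0.69 with an SE of 0.11 (quasi-likelihood test of edgeR, Benjamini-Hochberg adjusted p = 0.0243). The difference was positive under all 17 alternatives but the call ended under 7. In the authors' normalized values the labels overlapped, at 1084 to 1372 in CDH11-/- and 812 to 1367 in CDH11+/+ libraries. The difference was 0.26 there (limma, adjusted p = 0.524) and 0.24 with the authors' factors as offsets (edgeR, adjusted p = 0.544). The call also ended without CDH11-/- replicates 3 and 4 (edgeR, adjusted p = 0.0688 and 0.0525) and without CDH11+/+ replicates 2, 3 and 4 (edgeR, adjusted p = 0.0808, 0.0659 and 0.112). Directions below are those of the labels, and the counts cannot say which part of the gene was deleted. Libraries stood apart in 2 cases. CDH11-/- replicate 2 held transcripts that are abundant in liver, with albumin (Alb, chosen after its values were seen) at 295 CPM against 0.604 to 20.4 CPM in the other CDH11-/- libraries and 1.5 to 10.1 CPM in CDH11+/+ libraries. CDH11+/+ replicate 1 lay at 41.0 on the second principal component, which held 22.6% of the variance, against −26.1 to 9.92 for the other 7 libraries. Each member is given with and without these libraries.

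Across the members, 8 of 9 had a negative log2 fold change, with lower fitted levels in CDH11-/- libraries, and their median was −0.52, against −0.01 over all genes tested, of which 52.2% were negative. Of the 9, 1 passed the threshold and was lower (Abcg2), 0 were higher, and 8 did not pass it. Over all genes tested 0.719% passed, 0.347% lower and 0.372% higher. At an unadjusted p under 0.05 there were 2 members (Abcg2 and Slc22a5). The share of all genes tested at that cut was not taken, so this count and those for lists below are description only. DESeq2 called 2 members with 2.79% of genes called, and limma-voom called 3 with 4.32% of genes called. Replicates are separate mice only as far as the labels list them as separate samples. The p-values set the difference between labels against the spread between samples of the same label.

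**Figure D1:**
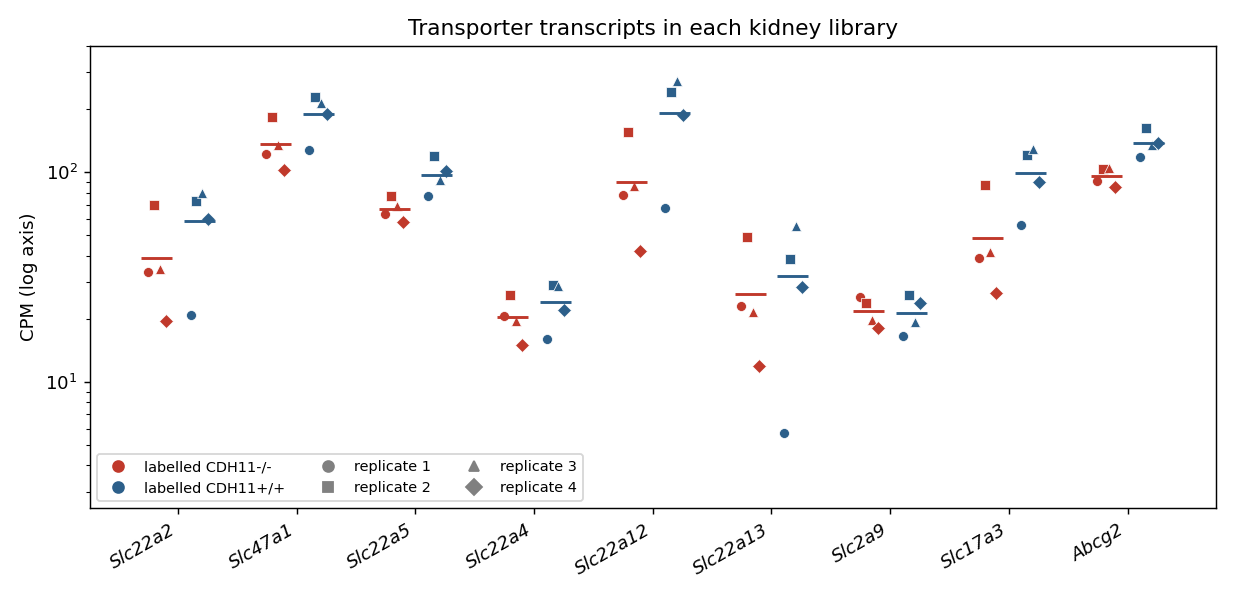
Level of each transporter transcript in each library, in CPM on a log axis. Red symbols are the libraries labelled CDH11-/- and blue symbols those labelled CDH11+/+, shapes mark the replicate, and horizontal bars are group means. Abcg2 is the member whose groups do not overlap, and the circle of CDH11+/+ replicate 1 is the lowest blue symbol for all 9 genes.

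The sequence upstream of 4 members is shown because they differ in the spread between mice: Slc22a12 and Slc17a3, with the most negative fold changes, varied widely between libraries of 1 group, and Slc22a5 and Abcg2 varied least. Each line runs 5′ to 3′ on the gene's own strand, from 250 bases before the annotated start to 50 bases after it, and is taken from RefSeq on build GRCm38.p6. The windows are chr19:6543021-6543320 (minus strand) for Slc22a12, chr13:23839184-23839483 (plus strand) for Slc17a3, chr11:53891654-53891953 (minus strand) for Slc22a5 and chr6:58596422-58596721 (plus strand) for Abcg2. Capitals mark CAAAG or its reverse complement CTTTG, the first letters of the element bound by the nuclear receptor HNF4.
Slc22a12: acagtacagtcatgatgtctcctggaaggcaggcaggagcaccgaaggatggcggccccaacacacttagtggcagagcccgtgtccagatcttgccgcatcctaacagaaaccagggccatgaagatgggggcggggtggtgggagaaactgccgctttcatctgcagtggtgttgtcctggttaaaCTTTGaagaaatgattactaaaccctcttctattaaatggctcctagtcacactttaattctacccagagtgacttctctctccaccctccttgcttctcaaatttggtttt
Slc17a3: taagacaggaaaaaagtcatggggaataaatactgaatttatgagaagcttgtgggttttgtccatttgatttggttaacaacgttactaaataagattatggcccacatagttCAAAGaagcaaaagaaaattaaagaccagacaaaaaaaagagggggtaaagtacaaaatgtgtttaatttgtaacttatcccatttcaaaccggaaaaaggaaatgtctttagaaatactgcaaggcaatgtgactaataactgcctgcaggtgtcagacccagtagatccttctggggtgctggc
Slc22a5: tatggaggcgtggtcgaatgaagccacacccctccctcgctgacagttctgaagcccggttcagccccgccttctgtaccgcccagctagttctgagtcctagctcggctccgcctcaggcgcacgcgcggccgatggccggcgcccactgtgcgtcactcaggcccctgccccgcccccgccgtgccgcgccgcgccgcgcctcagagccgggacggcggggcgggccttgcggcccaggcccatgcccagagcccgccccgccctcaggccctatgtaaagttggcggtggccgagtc
Abcg2: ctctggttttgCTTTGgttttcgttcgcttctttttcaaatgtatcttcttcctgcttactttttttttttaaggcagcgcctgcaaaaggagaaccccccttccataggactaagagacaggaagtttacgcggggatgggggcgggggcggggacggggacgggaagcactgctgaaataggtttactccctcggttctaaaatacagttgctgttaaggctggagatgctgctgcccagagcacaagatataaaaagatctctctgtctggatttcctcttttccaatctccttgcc
In these 4 windows the motif began at position −62 relative to the start in Slc22a12, at −136 in Slc17a3 and at −239 in Abcg2, and it was not found in the Slc22a5 window. Windows were on hand for 8 of the 9 members, 10 windows in all since Abcg2 has 3, and Slc47a1 had none. CAAAG or CTTTG stood in 5 of the 10 (Slc22a12, Slc17a3, Slc22a13, Slc22a2 and 1 of Abcg2), which is 50%, near the 53.9% of all 32851 windows of this length. AGGTCA or TGACCT, a half-site of nuclear receptors, stood in 3 of the 10 (2 of Abcg2 and that of Slc2a9) and in 16.3% of all windows. GTTAAT or ATTAAC, a half-site of HNF1, stood in 0 of the 10 and in 7.10% of all windows.

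The windows also differ in base composition. The observed over expected frequency of CpG, which is high in CpG islands, was 0.875 in the Slc22a5 window and 0.813 in that of Slc22a4, against a median of 0.384 over all windows. It was 0.320 for Slc22a12, 0.207 for Slc17a3, 0.385 for Slc22a2, 0.116 for Slc2a9 and 0 for Slc22a13. The Abcg2 windows had 0.160, 0.580 and 0.832, the middle one being that printed. A ratio over 0.6 was met by 3 of the 10 windows and by 35.8% of all windows. Gene counts do not show which start of Abcg2 was in use.

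Among the organic cation transporters, the entry step was read from Slc22a2 (ENSMUSG00000040966, chr17:12584132-12628488, plus strand), which encodes the blood-side carrier OCT2. Slc22a2 stood at 33.3, 69.5, 34.5 and 19.5 CPM in CDH11-/- replicates 1 to 4, against 20.9, 73.1, 79.5 and 59.8 CPM in CDH11+/+ replicates 1 to 4. The groups overlapped widely, since CDH11-/- replicate 2 lay among the CDH11+/+ libraries and CDH11+/+ replicate 1 lay close to the lowest CDH11-/- library. Mean levels were 39.2 ± 21.3 CPM in CDH11-/- and 58.3 ± 26.3 CPM in CDH11+/+ libraries (SD, n = 4 each). The log2 fold change was −0.57 ± 0.53 (SE) and did not pass the threshold (edgeR, adjusted p = 0.689). It was −0.999 without CDH11-/- replicate 2 and −0.84 without CDH11+/+ replicate 1, and passed the threshold in neither case.

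The exit step was read from Slc47a1 (ENSMUSG00000010122, chr11:61343401-61378345, minus strand), which encodes MATE1, a brush border antiporter that exchanges organic cations for protons. Slc47a1 stood at 122, 184, 134 and 103 CPM in CDH11-/- replicates 1 to 4 and at 127, 229, 214 and 188 CPM in CDH11+/+ replicates 1 to 4. CDH11+/+ replicate 1 lay within the CDH11-/- range, and CDH11-/- replicate 2 lay close to the other CDH11+/+ libraries. The log2 fold change was −0.48 ± 0.23 (edgeR, adjusted p = 0.406), and it was −0.66 without CDH11-/- replicate 2 and −0.62 without CDH11+/+ replicate 1. Slc47a2, the paralog 540 bases away, was under the filter at 0.0923 to 1.03 CPM over the 8 libraries.

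Entry and exit were set against each other within each library as the log2 ratio of Slc22a2 to Slc47a1 in CPM, which does not depend on library scaling. The ratio was −1.87, −1.40, −1.96 and −2.39 in CDH11-/- replicates 1 to 4 and −2.60, −1.65, −1.42 and −1.65 in CDH11+/+ replicates 1 to 4. CDH11+/+ replicate 1 had the lowest ratio of the 8. Means were −1.91 ± 0.40 in CDH11-/- and −1.83 ± 0.52 in CDH11+/+ libraries (SD, n = 4 each), a difference of −0.07 (two-sided exact permutation test, p = 0.8, adjusted over 3 ratios 0.8). The smallest p that 4 against 4 libraries allow is 0.0286.

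Other carriers of organic cations were read from a list of 12 genes, of which 9 were tested. None passed the threshold by edgeR, 3 had an unadjusted p under 0.05, DESeq2 called 1 and limma-voom 2, and 6 of 9 had a negative fold change with a median of −0.17. Slc22a3, a neighbour of Slc22a2 on the chromosome, was scarce at 0.259 to 1.21 CPM in CDH11-/- and 0.646 to 1.75 CPM in CDH11+/+ libraries, with −0.86 ± 0.47 (adjusted p = 0.438). Slc19a3, a thiamine transporter, had the smallest p of the list, with −0.71 ± 0.15 (edgeR, adjusted p = 0.0654), at 4.92 to 5.49 CPM in CDH11-/- and 6.46 to 9.72 CPM in CDH11+/+ libraries, which do not overlap.

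Carnitine uptake was read from Slc22a5 (ENSMUSG00000018900, chr11:53864542-53891660, minus strand), which encodes the sodium-dependent carnitine carrier OCTN2. Slc22a5 stood at 63.3, 77.4, 69.1 and 57.9 CPM in CDH11-/- replicates 1 to 4, against 76.9, 119.8, 91.4 and 102 CPM in CDH11+/+ replicates 1 to 4. The groups nearly separated: only CDH11-/- replicate 2 reached the lowest CDH11+/+ library, replicate 1. Mean levels were 66.9 ± 8.37 CPM in CDH11-/- and 97.4 ± 18.1 CPM in CDH11+/+ libraries (SD, n = 4 each), and the log2 fold change was −0.54 ± 0.14 (edgeR, adjusted p = 0.123). The call depended on the tool and on 1 library, since adjusted p was 0.00925 by DESeq2, 0.0242 by limma-voom and 0.0133 by edgeR without CDH11+/+ replicate 1. In that last fit 6.25% of genes passed the threshold. The fold change was −0.62 without CDH11-/- replicate 2 and −0.63 without CDH11+/+ replicate 1.

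Slc22a4 (ENSMUSG00000020334, chr11:53983123-54028090, minus strand), the paralog that carries ergothioneine, a diet-derived antioxidant, stood at 20.7, 26.1, 19.4 and 15.1 CPM in CDH11-/- replicates 1 to 4 and at 16.1, 28.9, 28.7 and 22.1 CPM in CDH11+/+ replicates 1 to 4. The groups overlapped over most of their ranges. The log2 fold change was −0.24 ± 0.21 (edgeR, adjusted p = 0.675), and −0.38 without CDH11-/- replicate 2 and −0.37 without CDH11+/+ replicate 1. Between these genes lies Slc22a21, a carnitine carrier described in mouse, 2790 bases from Slc22a4. Slc22a21 stood at 5.54 to 8.60 CPM in CDH11-/- and 6.09 to 7.04 CPM in CDH11+/+ libraries, with a log2 fold change of 0.04 ± 0.17 (adjusted p = 0.949), so the 3 neighbours on chromosome 11 had −0.54, −0.24 and 0.04. Whether reads of these paralogs could be told apart depends on how the authors counted them, a step that the sources at hand do not describe.

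The log2 ratio of Slc22a5 to Slc22a4 was 1.61, 1.57, 1.82 and 1.93 in CDH11-/- replicates 1 to 4 and 2.25, 2.04, 1.66 and 2.20 in CDH11+/+ replicates 1 to 4. CDH11+/+ replicate 3 lay within the CDH11-/- range and the other CDH11+/+ libraries lay above it. Means were 1.73 ± 0.17 in CDH11-/- and 2.04 ± 0.26 in CDH11+/+ libraries (SD, n = 4 each), a difference of −0.31 (two-sided exact permutation test, p = 0.114, adjusted over 3 ratios 0.343). The genes that make carnitine or use it in the mitochondrial shuttle were a list of 10, of which 8 were tested. None passed by edgeR or DESeq2, 1 passed by limma-voom, 1 had an unadjusted p under 0.05, and 7 of 8 had negative fold changes with a median of −0.16. Aldh9a1, an enzyme of carnitine synthesis, had −0.45 ± 0.16 (edgeR, adjusted p = 0.250). Cpt1c, a brain-type relative of the carnitine palmitoyltransferases, was the 1 positive gene with 0.19 ± 0.09 (adjusted p = 0.361).

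Urate reabsorption was read first from Slc22a12 (ENSMUSG00000061742, chr19:6535845-6543032, minus strand), which encodes URAT1, the brush border exchanger that takes up urate. Slc22a12 stood at 77.7, 156, 85.6 and 42.0 CPM in CDH11-/- replicates 1 to 4, against 67.8, 241, 272 and 187 CPM in CDH11+/+ replicates 1 to 4. All CDH11+/+ libraries but replicate 1 lay above all CDH11-/- libraries, and CDH11+/+ replicate 1 lay below all CDH11-/- libraries but replicate 4. Mean levels were 90.2 ± 47.5 CPM in CDH11-/- and 192 ± 89.9 CPM in CDH11+/+ libraries (SD, n = 4 each). The log2 fold change was the most negative of the 9, −1.09 ± 0.54, and did not pass the threshold (edgeR, adjusted p = 0.434). It was −1.48 without CDH11-/- replicate 2 and −1.36 without CDH11+/+ replicate 1, still short of the threshold. Slc22a12 shares 682 bases of exon with Nrxn2 on the other strand, and the sources at hand do not say whether reads were assigned by strand.

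Slc22a13 (ENSMUSG00000074028, chr9:119192974-119209098, minus strand), which encodes OAT10, an exchanger of urate and nicotinate, had the widest spread of the 9. It stood at 23.1, 48.9, 21.6 and 11.9 CPM in CDH11-/- replicates 1 to 4 and at 5.72, 38.6, 55.2 and 28.3 CPM in CDH11+/+ replicates 1 to 4. The highest library was 4.11 times the lowest among CDH11-/- and 9.65 times the lowest among CDH11+/+ libraries. The log2 fold change was −0.28 ± 0.69 (edgeR, adjusted p = 0.896), and it ranged from −0.76 without CDH11-/- replicate 2 to 0.11 without CDH11+/+ replicate 3, so its sign rests on single mice. Without CDH11+/+ replicate 1 it was −0.61. The pseudogene Slc22a13b-ps, at mean levels of 0.866 CPM in CDH11-/- and 0.852 CPM in CDH11+/+ libraries, may share reads with it.

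Slc2a9 (ENSMUSG00000005107, chr5:38349273-38503143, minus strand) encodes GLUT9, which carries urate across the membrane, and which in mouse is known from the distal convoluted tubule and from liver. It stood at 25.5, 23.8, 19.7 and 18.2 CPM in CDH11-/- replicates 1 to 4 and at 16.5, 26.0, 19.3 and 23.7 CPM in CDH11+/+ replicates 1 to 4. The groups covered nearly the same range. Mean levels were 21.8 ± 3.40 CPM in CDH11-/- and 21.4 ± 4.27 CPM in CDH11+/+ libraries (SD, n = 4 each), with a log2 fold change of 0.02 ± 0.15 (edgeR, adjusted p = 0.962). The sign turned under 5 of the 17 alternative settings, which together ran from −0.07 to 0.13. Without the library high in albumin, CDH11-/- replicate 2, it was −0.02, and without CDH11+/+ replicate 1 it was −0.07. Markers of the distal convoluted tubule, 6 of 6 tested, summed to 1613 to 1895 CPM in CDH11-/- and 1479 to 2646 CPM in CDH11+/+ libraries, with 6 of 6 fold changes negative and none past the threshold by edgeR, DESeq2 or limma-voom (1 at an unadjusted p under 0.05).

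Urate secretion was read from Slc17a3 and Abcg2. Slc17a3 (ENSMUSG00000036083, chr13:23839434-23860716, plus strand) encodes NPT4, a voltage-driven brush border carrier of urate and organic anions. It stood at 38.8, 86.9, 41.5 and 26.5 CPM in CDH11-/- replicates 1 to 4, against 56.3, 121, 129 and 90.0 CPM in CDH11+/+ replicates 1 to 4. CDH11-/- replicate 2 lay among the CDH11+/+ libraries and the other CDH11-/- libraries lay below all of them. Mean levels were 48.4 ± 26.5 CPM in CDH11-/- and 99.2 ± 33.3 CPM in CDH11+/+ libraries (SD, n = 4 each), and the log2 fold change was −1.03 ± 0.44 (edgeR, adjusted p = 0.359). Limma-voom with quality weights put it past the threshold (adjusted p = 0.0451). Without CDH11-/- replicate 2 the fold change was −1.47, and without CDH11+/+ replicate 1 it was −1.22. Its neighbour Slc17a1, 7033 bases away and the gene of the related carrier NPT1, stood at 58.0, 72.7, 59.5 and 45.7 CPM in CDH11-/- and 84.2, 134, 115 and 107 CPM in CDH11+/+ replicates. These groups do not overlap, and the fold change was −0.90 ± 0.17 (edgeR, adjusted p = 0.0616).

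Abcg2 (ENSMUSG00000029802, chr6:58584523-58695676, plus strand) encodes BCRP, an ATP-driven pump for urate and many drugs, and was the member that passed the threshold. It stood at 91.1, 104, 105 and 84.8 CPM in CDH11-/- replicates 1 to 4, against 118, 162, 134 and 138 CPM in CDH11+/+ replicates 1 to 4. Every CDH11-/- library lay below every CDH11+/+ library, a separation found in this direction for 3.74% of genes tested and in either direction for 7.33%. Abcg2 fell to 96.1 ± 9.79 CPM in CDH11-/- libraries, against 138 ± 18.3 CPM in CDH11+/+ libraries (SD, n = 4 each), so that the CDH11-/- mean was 30.3% below. The log2 fold change was −0.52 ± 0.10 (edgeR, adjusted p = 0.0447). The direction held under all 17 alternatives, from −0.58 to −0.43, but the call held under 7 and ended under 10, with adjusted p between 0.00082 and 0.167.

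Among the fits that left out 1 library, the Abcg2 call held without CDH11+/+ replicate 1 (edgeR, adjusted p = 0.00582; fold change −0.58). It ended without CDH11-/- replicates 1, 2, 3 and 4, at edgeR adjusted p = 0.167, 0.0651, 0.0851 and 0.108 in that order. It also ended without CDH11+/+ replicates 2, 3 and 4, at edgeR adjusted p = 0.0924, 0.0921 and 0.148 in that order. Without CDH11-/- replicate 2, the library high in albumin, the fold change was −0.56. The call ended in addition without robust moderation (edgeR, adjusted p = 0.0578), with limma applied to the normalized table (0.0611) and with the authors' factors as edgeR offsets (0.0606).

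**Figure D2:**
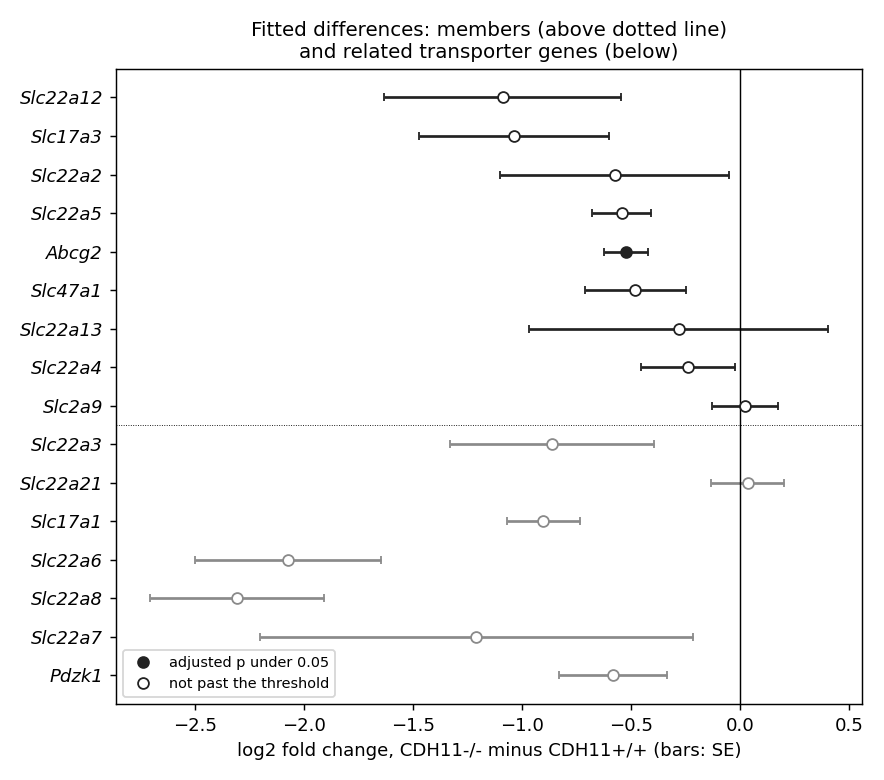
Fitted log2 fold change of CDH11-/- over CDH11+/+ libraries on the horizontal axis, with bars of 1 SE, for the 9 members above the dotted line and related transporter genes below it. The filled point marks the gene with an adjusted p under 0.05, Abcg2 at −0.52. Slc22a12 and Slc17a3 lie farther from 0 with bars several times as wide, and Slc2a9 lies at 0.02.

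Reabsorption and secretion were compared within each library as the log2 ratio of Slc22a12 to Abcg2. It was −0.23, 0.58, −0.29 and −1.01 in CDH11-/- replicates 1 to 4 and −0.80, 0.57, 1.02 and 0.44 in CDH11+/+ replicates 1 to 4. CDH11-/- replicate 2 and CDH11+/+ replicate 1 each lay among the libraries of the other label. Means were −0.24 ± 0.65 in CDH11-/- and 0.31 ± 0.78 in CDH11+/+ libraries (SD, n = 4 each), a difference of −0.54 (two-sided exact permutation test, p = 0.343, adjusted over 3 ratios 0.514).

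Other urate carriers, scaffold proteins and sodium-coupled carriers of monocarboxylates were a list of 12 genes, 11 of them tested. None passed the threshold by edgeR, 8 had an unadjusted p under 0.05, DESeq2 called 5 and limma-voom 4. All 11 fold changes were negative, with a median of −0.82. Slc22a8, the basolateral organic anion carrier OAT3, had −2.31 ± 0.40 (edgeR, adjusted p = 0.0621) and stood at 5.68 to 7.13 CPM in CDH11-/- and 17.2 to 57.4 CPM in CDH11+/+ libraries. Slc22a6, its partner OAT1, had −2.07 ± 0.43 (adjusted p = 0.105), and Pdzk1, which anchors brush border carriers, had −0.58 ± 0.25 (adjusted p = 0.352). Both were chosen after their values were seen. As background, OAT1 and OAT3 are known to carry aristolochic acid into proximal tubule cells.

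Genes of purine breakdown and salvage, some of which make urate or in mouse degrade it, were a list of 9, 6 of them tested. None passed by edgeR, DESeq2 or limma-voom, 0 had an unadjusted p under 0.05, and 2 of 6 fold changes were negative with a median of 0.18. The smallest p were those of guanine deaminase Gda (0.35 ± 0.16, edgeR adjusted p = 0.356) and adenosine deaminase Ada (0.35 ± 0.22, adjusted p = 0.515). Uox, the liver enzyme that degrades urate, stood at 12.9 CPM in CDH11-/- replicate 2 and at 0.0672 to 1.11 CPM in the other CDH11-/- libraries, against 0.369 to 1.19 CPM in CDH11+/+ libraries. It was named after its values were seen. Other genes of the Slc22 family, 13 in the list and 11 tested, had 10 negative fold changes, a median of −0.63, 1 unadjusted p under 0.05 and no call by edgeR, DESeq2 or limma-voom. The smallest p were those of Slc22a23 (−0.34 ± 0.13, edgeR adjusted p = 0.263) and Slc22a29 (−0.65 ± 0.34, adjusted p = 0.415).

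Transcription factors known for proximal tubule transport genes, among them the HNF1 and HNF4 factors and nuclear receptors, were 12 genes, 11 of them tested. Of these, 8 had negative fold changes, the median was −0.29, 7 had an unadjusted p under 0.05, and 1 passed the threshold and was higher. That was Ahr, the aryl hydrocarbon receptor, a sensor of plant and combustion compounds for which Abcg2 is a known target in human cells. Ahr stood at 21.7, 22.0, 22.2 and 25.1 CPM in CDH11-/- and 18.3, 14.2, 14.1 and 16.2 CPM in CDH11+/+ replicates, without overlap, and its log2 fold change was 0.54 ± 0.10 (edgeR, adjusted p = 0.0414). The call ended under 9 of 17 alternatives, with adjusted p up to 0.136. DESeq2 called 3 of the list and limma-voom 2.

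The levels of the members were compared with each other only as CPM per kilobase of merged exons. In CDH11-/- libraries the order of means was Slc47a1 at 40.2 ± 10.3, Slc22a12 at 39.9 ± 21, Slc22a5 at 21.8 ± 2.73, Slc22a2 at 15.8 ± 8.58 and Slc22a13 at 13.2 ± 7.90. It went on with Abcg2 at 11.8 ± 1.20, Slc22a4 at 7.95 ± 1.77, Slc17a3 at 7.15 ± 3.90 and Slc2a9 at 4.29 ± 0.669 CPM per kilobase (SD, n = 4). In CDH11+/+ libraries Slc22a12 led at 84.8 ± 39.7, above Slc47a1 at 56.0 ± 13.3, Slc22a5 at 31.7 ± 5.88 and Slc22a2 at 23.5 ± 10.6. Abcg2 followed at 16.9 ± 2.24, then Slc22a13 at 16.0 ± 10.4, Slc17a3 at 14.6 ± 4.91, Slc22a4 at 9.38 ± 2.41 and Slc2a9 at 4.21 ± 0.841. Of the 8 pairs of neighbours in each order, 7 overlapped between their libraries. The exceptions were Abcg2 above Slc22a4 in CDH11-/- and Slc22a4 above Slc2a9 in CDH11+/+ libraries. The order of most neighbours, among them the top pair of Slc47a1 and Slc22a12, is therefore not settled.

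The members divided by how far mice of 1 group lay apart. The within-group SD of log2 CPM was over 0.5 for 4 of 9 members, 1.17 for Slc22a13, 0.84 for Slc22a12, 0.82 for Slc22a2 and 0.64 for Slc17a3. Among the 11187 genes tested at a mean of 10 CPM or more, 1.84% had an SD that large and the median was 0.12. The other 5 members had 0.37 for Slc47a1, 0.36 for Slc22a4, 0.26 for Slc2a9, 0.23 for Slc22a5 and 0.17 for Abcg2. Counting error is small beside this, since the lowest count of any member in any library was 62.

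The lowest mouse of each group was the same for all members. CDH11-/- replicate 4 was the lowest CDH11-/- library for 9 of 9 members, and CDH11+/+ replicate 1 the lowest CDH11+/+ library for 9 of 9. Both held for 16.4% of genes tested and for 15 of 20 proximal tubule markers. CDH11-/- replicate 2 was the highest CDH11-/- library for 7 of 9 members. Averages of proximal tubule, S3 and thick ascending limb markers also peaked there. Those of distal convoluted tubule and collecting duct markers peaked in CDH11-/- replicate 1. The highest CDH11+/+ library was replicate 2 for 5 members and replicate 3 for 4. For the highest library no share of all genes was taken.

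**Figure D3:**
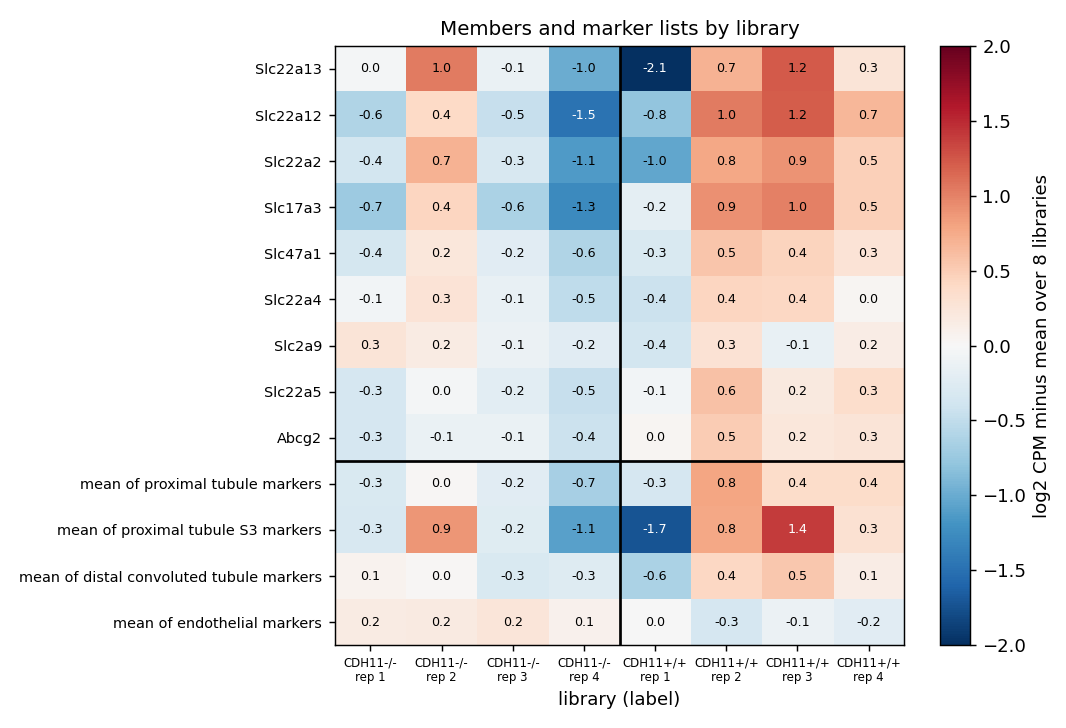
Log2 CPM of each member minus its mean over the 8 libraries (colour, red above and blue below the mean, value printed in each cell), with libraries as columns, CDH11-/- on the left, and members ordered by spread from widest to narrowest. The rows under the line are means over marker lists on the same scale. The S3 marker row runs from −1.7 to 1.4 and is low and high in the same libraries as Slc22a13 in the first row. Thick ascending limb markers, not drawn, had the order of Slc22a13 within each group over a narrower range.

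Proximal tubule markers had the same sign as most members. All 20 proximal tubule markers had negative fold changes with a median of −0.64. None passed by edgeR, 13 had an unadjusted p under 0.05, DESeq2 called 8 and limma-voom 6. Markers of the last proximal segment, S3, were negative in 8 of 8 with a median of −0.62, none passing by edgeR, DESeq2 or limma-voom and 0 at an unadjusted p under 0.05. Their sums ran from 680 to 2077 CPM in CDH11-/- and from 463 to 2476 CPM in CDH11+/+ libraries. Endothelial markers went the other way, with 10 of 10 positive, a median of 0.32 and sums of 534 to 591 CPM in CDH11-/- and 388 to 508 CPM in CDH11+/+ libraries. None of these passed by edgeR, 8 had an unadjusted p under 0.05, DESeq2 called 5 and limma-voom 7. Fibroblast markers were positive in 8 of 9, with a median of 0.42, 0 calls by edgeR, 5 unadjusted p under 0.05, 2 calls by DESeq2 and 3 by limma-voom. The lists for macrophages (median 0.13), red cells (0.17), thick ascending limb (−0.17), collecting duct (−0.07) and injured tubule (−0.01) likewise held 0 genes called by edgeR, and 1, 0, 0, 1 and 4 genes with an unadjusted p under 0.05 in that order. DESeq2 called 1, 0, 0, 0 and 2 of them and limma-voom 1, 0, 0, 0 and 1.

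In bulk kidney RNA, fewer cells of a type and less RNA per cell cannot be told apart, and the part these cell types have in the members' differences was not tested.

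The S3 markers were high and low in the same mice as the widely varying members. Relative to the mean of the 8 libraries, their average log2 level was −0.32, 0.88, −0.24 and −1.08 in CDH11-/- replicates 1 to 4 and −1.72, 0.78, 1.40 and 0.30 in CDH11+/+ replicates 1 to 4. Slc22a13 had the same order of libraries within each group apart from CDH11-/- replicates 1 and 3, which lay close together. On the same scale, thick ascending limb markers averaged 0.004, 0.28, −0.13 and −0.46 in CDH11-/- replicates 1 to 4. In CDH11+/+ replicates 1 to 4 they averaged −0.53, 0.32, 0.41 and 0.11. Their range was narrower, but their order within each group was that of Slc22a13, so the order is not particular to S3 markers. Kap, an androgen-regulated gene of the mouse proximal tubule named after its values were seen, stood at 900.3, 3311, 1157 and 612 CPM in CDH11-/- and at 284, 2872, 4363 and 1789.8 CPM in CDH11+/+ replicates.

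Each member was also read against the mean log2 CPM of the 20 proximal tubule markers in its own library. That mean was itself lower in CDH11-/- libraries (difference −0.59), so a gene with equal levels in both groups comes out positive on this scale, and the median over all genes tested was 0.58. On this relative scale the difference between CDH11-/- and CDH11+/+ means was 0.04 for Slc22a2, 0.06 for Slc22a5, 0.07 for Abcg2 and 0.11 for Slc47a1. For these 4 transcripts the group means lay within 0.11 of each other on this scale. Single libraries spread more widely, most for Slc22a2, from −2.60 to −1.47 in CDH11-/- and from −2.83 to −1.62 in CDH11+/+ libraries. Slc22a12 and Slc17a3 had differences between means of −0.47 and −0.51, and Slc22a4, Slc22a13 and Slc2a9 had 0.37, 0.52 and 0.62. Relative to the markers, Slc2a9 lay between −3.02 and −2.58 in CDH11-/- and between −3.65 and −3.16 in CDH11+/+ libraries, without overlap. Slc22a4 also did not overlap, at −3.04 to −2.87 in CDH11-/- and −3.49 to −3.08 in CDH11+/+ libraries. Separation in this direction was found for 6.88% of genes tested, and the 0.62 of Slc2a9, whose CPM hardly differed between groups, is close to that median of 0.58. No test was made on this scale.

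**Figure D4:**
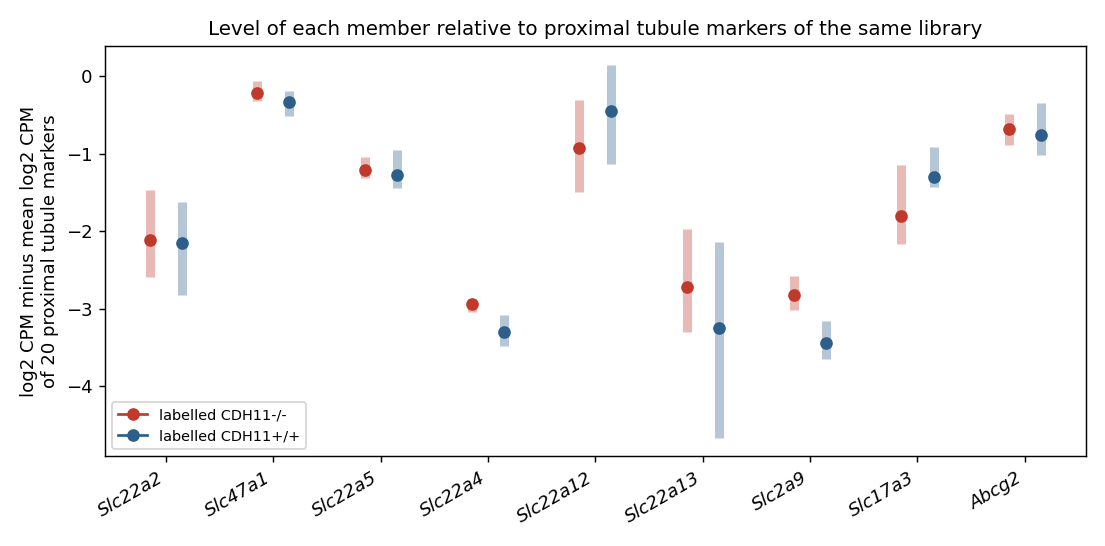
Log2 CPM of each member minus the mean log2 CPM of 20 proximal tubule markers in the same library, with points at group means and bars over the range of 4 libraries, CDH11-/- in red left of CDH11+/+ in blue. Slc22a2, Slc22a5, Abcg2 and Slc47a1 have means within 0.11 of each other between groups, and the bars of Slc2a9 and Slc22a4 lie apart, with CDH11-/- above CDH11+/+. The markers themselves were lower in CDH11-/- libraries, which raises CDH11-/- points on this axis.

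Genes with the most similar profile were sought among 14365 protein-coding genes tested, by the root mean square difference of centred log2 CPM over the 8 libraries, in which a smaller value is more alike. The nearest to Slc22a12 were Ehhadh, a peroxisomal enzyme of fatty acid oxidation, at 0.15 and Ugt3a2 at 0.16. The nearest to Slc22a13 were Bhmt2, a methyltransferase, at 0.12 and Napsa, a protease that is 1 of the S3 markers, at 0.15. Slc22a2 had Ak4 at 0.11 and Acy3 at 0.12, and Slc17a3 had Gm15217 and the acyl-CoA hydrolase Acot12 at 0.17 each. The narrower members had smaller values, which this measure favours because profiles that vary less lie closer together. Slc47a1 had Gm5617 and the peroxisomal hydrolase Acot4 at 0.05 each, Slc22a5 had Fmo1 and Afmid at 0.06 each, and Slc22a4 had Coasy at 0.05 and Scrn2 at 0.06. Abcg2 had Tex2 and Igfbp4 at 0.07 each, and Slc2a9 had the histone gene Hist1h1c at 0.06 and the sugar carrier Slc2a8 at 0.09. Among the members themselves the closest pair was Abcg2 and Slc22a5, at 0.07. Slc22a12 lay 0.26 from Slc17a3 and 0.26 from Slc22a2.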

How the data were processed

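Total RNA of whole kidneys was prepared with Trizol and column purification, followed by directional library preparation, per the labels' protocols. Grouping followed the labelled genotype of the 8 mice. Litter, batch and replicate numbers are absent from the labels, so replicate numbers here follow the order of deposit and only name a library.

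Of the 2 deposited tables, one holds counts, whole numbers for each Ensembl identifier, as made by the authors. The other holds a signal that the authors normalized. Per the submitters' processing notes, reads were handled on build mm10 with DRAGEN and DESeq2, and no versions are given there. Dividing the deposited counts by the deposited signal gives factors that vary from gene to gene within a library, so the signal entered as an alternative and the counts gave every value reported. There were 0 columns of other samples.

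Names and coordinates came from GENCODE release M21 of GRCm38, which named 42170 of 42256 identifiers. The 86 others stayed in the fit. The quasi-likelihood test of edgeR 4.0.16 (R 4.3.3) was run with TMM library sizes, filterByExpr at a minimum count of 10, robust moderation and genotype label as the model, with Benjamini-Hochberg adjustment over 15852 genes and a threshold of 0.05. CPM use TMM library sizes, and log2 CPM a prior count of 2. The common biological coefficient of variation was 13.5%, and at 10675309 to 18539479 counts a library the counting error of the members is small. The fit was also run on simulated counts, which held no outlying library and no spread shared between genes. Alternatives used DESeq2 1.42.0 and limma 3.58.1, other scalings and filters, the authors' factors as offsets, the normalized signal with a pseudocount of 1, and each library left out in turn. Ratios within a library were tested by exact permutation over the 8 libraries, two-sided.

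The members, the 16 other gene lists, the tests and the alternatives were chosen with earlier results of these data known. Named genes are the members, Cdh11, in each transporter, enzyme or factor list the genes past the threshold or otherwise the 2 of smallest p, the 2 genes nearest to each member in profile, and neighbours on the chromosome. A gene that the rule names is not reported here. Genes outside this rule are said to be chosen after their values were seen. The neighbours not described in the results, where tested, had adjusted p of 0.348 (Herc3) or more.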

Additional observations from a re-analysis of the deposited data

Results flagged for a closer look

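In groups of 4 libraries, a library was singled out where its gap to the nearest other library, as a share of the range of the group, exceeded Dixon's critical value for 4 samples. This was met in 10 of 120 groups checked. Of these, 5 came from 4 genes chosen after their values were seen (Alb, Apoa1, Serpina1c and Uox). The other genes and ratios gave 5 in 102 groups, and chance gives about 1 in 20. None of the 10 was a member. For 4 of them the library was CDH11-/- replicate 2, which had 295 CPM of Alb (others 0.604 to 20.4), 45.3 CPM of Apoa1 (others 0 to 3.80), 40.5 CPM of Serpina1c (others 2.5 to 5.81) and 12.9 CPM of Uox (others 0.0672 to 1.11). These are transcripts abundant in liver. Among CDH11+/+ libraries, replicate 4 stood apart for Alb at 10.1 CPM (others 1.5 to 2.81).

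CDH11-/- replicate 4, the lowest CDH11-/- library for all 9 members, stood apart on the high side for Gda at 76.3 CPM (others 54.4 to 56.6) and for Ahr at 25.1 CPM (others 21.7 to 22.2). CDH11+/+ replicate 1, the lowest CDH11+/+ library for all 9 members, stood apart on the high side for Gda at 62.4 CPM (others 41.0 to 43.9) and for Wdr1, the neighbour of Slc2a9, at 247 CPM (others 210.1 to 216). It stood apart on the low side for Slc19a3 at 6.46 CPM (others 9.18 to 9.72).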

How the results depend on the processing

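The count of genes past the threshold over the whole table, 114, was 117 with DESeq2 size factors, 120 with library size alone, 117 with a filter of 1 CPM in 4 libraries and 119 without robust moderation. It was 208 with no filter, 515 by DESeq2, 685 by limma-voom with quality weights, 54 by limma on the authors' normalized values and 50 with their factors as offsets. Leaving out 1 library gave 26 to 1004, the highest without CDH11+/+ replicate 1. Members called, 1 in all libraries, were 0 without robust moderation, 2 by DESeq2, 3 by limma-voom, 0 by limma on the authors' normalized values, 0 with their factors as offsets, and 0 to 2 with 1 library left out. Why the counts moved was not tested.

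The median fold change of the members stayed negative under all 17 alternatives, from −0.66 to −0.36. With 1 library left out, Slc22a13 ran from −0.76 to 0.11, turning its sign without CDH11+/+ replicate 3. Slc2a9 ran from −0.069 to 0.13, turning without CDH11-/- replicate 1, CDH11-/- replicate 2, CDH11+/+ replicate 1 and CDH11+/+ replicate 3, and was −0.063 by limma-voom. The other 7 members kept their sign. With 1 library left out, the difference in log2 ratio ran from −0.33 to 0.087 for Slc22a2 over Slc47a1, from −0.43 to −0.24 for Slc22a5 over Slc22a4 and from −0.91 to −0.29 for Slc22a12 over Abcg2. That of Slc22a2 over Slc47a1 turned without CDH11-/- replicate 4 and without CDH11+/+ replicate 3. No paired analysis was possible because the labels give no replicate numbers shared between the groups. The lowest count of any member in any library was 62.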
